A study of Mus musculus with 6 samples.

Results

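The cytosolic ribosome of the mouse is built from ribosomal RNA and a fixed set of ribosomal proteins, and 83 rows of the count table, of 32212 in all, were taken as its genes. A row was a member when its symbol was Rpl or Rps followed by a number and at most one of the letters a, l or x, or when it was Rplp0, Rplp1, Rplp2 or Rpsa. Symbols with the ending -ps and the S6 kinases were left out by this rule, which used symbols and no measured value, and 3 members that GENCODE marks as processed pseudogenes, Rps4l, Rpl6l and Rpl32l, stayed in. The members comprised 51 genes of the large subunit and 32 of the small subunit. The samples were livers of male C57BL/6 mice on normal chow that were 2 yr old, 3 of them WT and 3 of them CgA-KO, with 1 library of poly(A)-selected RNA per mouse. CgA-KO mice lack chromogranin A, a prohormone of neuroendocrine cells, in the whole body. The comparison asked how the mRNAs of the ribosome differed between the genotypes, and whether the answer held under 2 ways of scaling the libraries.

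Ribosomal protein mRNAs are among the most abundant of a cell, and in most of them a short run of pyrimidines at the very start, the terminal oligopyrimidine (TOP) tract, couples their translation to growth signals through mTOR and the RNA-binding protein Larp1. Both subunits need near equal numbers of most of these proteins, so their mRNAs are commonly held at steady proportions. In liver, a tissue that exports large amounts of plasma proteins, these mRNAs come mostly from hepatocytes, although every other cell of the organ also makes them. In bulk RNA, fewer cells of a type and less RNA per cell cannot be told apart.

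The start sites are shown first, because the TOP tract is described for most ribosomal protein mRNAs and the rule did not use it. RefSeq start sites on GRCm38.p6 were matched for 61 of the 83 members. A tract was counted on the transcribed strand when the first base was C and at least 4 bases that were each C or T followed it. It stood at the annotated start of 14 members (23%), against 813 of 27025 genes (3.01%) among all promoters of the same table. A run of at least 8 bases C or T within 25 bases on either side of the start was found for 33 members (54.1%) and for 6014 of all genes (22.3%). None of the 69 matched mitochondrial ribosomal protein genes had the tract at its start. In the sequences below the first 10 letters lie before the annotated start, the other 20 follow from it, and capitals mark the longest unbroken run of C or T. Rpl15, Rpl35 and Rps10 were chosen after the sequences were seen, as long tracts, and Rplp2, Rpl13a, Rplp0 and Rps7 are members with results described later.
Rpl15, minus strand, chr14:18270967-18270996: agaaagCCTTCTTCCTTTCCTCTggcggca
Rpl35, minus strand, chr2:39005112-39005141: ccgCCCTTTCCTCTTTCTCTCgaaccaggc
Rps10, minus strand, chr17:27635225-27635254: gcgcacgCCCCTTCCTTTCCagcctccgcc
Rplp2, plus strand, chr7:141447641-141447670: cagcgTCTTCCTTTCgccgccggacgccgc
Rpl13a, minus strand, chr7:45128726-45128755: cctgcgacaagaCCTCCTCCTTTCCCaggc
Rplp0, plus strand, chr5:115559457-115559486: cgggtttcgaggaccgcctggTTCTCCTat
Rps7, minus strand, chr12:28635934-28635963: cggTTTCCacccacctacttccgctgtccc
The annotated start fell inside the run in the first 4 of these genes, lay 2 bases before it in Rpl13a, and lay outside any long run in Rplp0 and Rps7. An annotated start can differ from the start used in liver, so a missing tract says only that these letters were not in this window.

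The libraries differed in depth and in one respect that touches every result on the ribosome. Total counts were between 10558616 and 31087453 per library, and 3 counts, the lowest level taken as seen, stood for 0.0965 to 0.284 CPM (counts after scaling each library to the same total). WT replicate 2 was the deepest library and had the lowest scaling factor of the trimmed mean of M values (TMM), 0.756, against 0.935 to 1.12 in the other libraries. Sampling noise did not account for the spread within a genotype (chi-square over its degrees of freedom from 29.9 to 190 between pairs of livers), and each library was kept as a sample. The hepatocyte markers Alb, Apoa1, Ttr, Cps1 and Hnf4a were high in every library, with a summed level of 47180 to 81270 CPM in WT and 38660 to 68370 CPM in CgA-KO, and none of the 5 passed the test between the genotypes.

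The members together held 2.03%, 3.03% and 2.16% of all counts in WT replicates 1, 2 and 3, and 2.06%, 2.02% and 2.20% in CgA-KO replicates 1, 2 and 3. WT replicate 2 stood above the other 5 libraries, which lay close together, and the genotypes overlapped. The mean share was 2.41% ± 0.543 (SD, n = 3) in WT and 2.10% ± 0.0954 (SD, n = 3) in CgA-KO livers. Without WT replicate 2 the WT mean was 2.10% ± 0.0946 (SD, n = 2). With TMM factors the summed level was 19180, 40060 and 23150 CPM in WT and 18410, 18390 and 20370 CPM in CgA-KO, which set WT replicate 2 further apart. TMM also lowered the sums of the CgA-KO livers, which were 20630, 20230 and 22040 CPM with library size. It lowered that of WT replicate 1 from 20280 CPM. Both subunits showed the same layout, with sums of 8447, 18180 and 10190 CPM in WT and 7960, 7417 and 8770 CPM in CgA-KO for the small subunit. For the large subunit the sums were 10740, 21880 and 12960 CPM in WT and 10450, 10980 and 11600 CPM in CgA-KO.

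**Figure D1:**
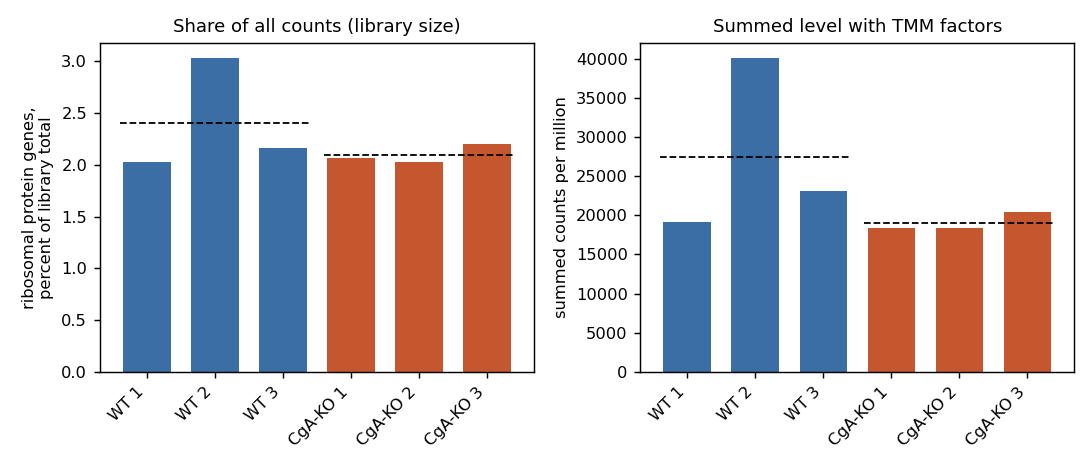
Summed level of the 83 ribosomal protein genes in each library, as a percent of the library's counts (left) and as CPM with TMM factors (right). Bars are single libraries, blue for WT and orange for CgA-KO, and dashed lines are genotype means; WT 2 reached 3.03% and 40060 CPM, and the other 5 libraries lay between 2.02% and 2.20% and between 18390 and 23150 CPM.

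Most members had a lower level in CgA-KO livers under TMM scaling, yet few passed the test. Of the 83 members, 78 passed the filter on low counts, 32 of the small and 46 of the large subunit. The log2 fold change was below 0 in 72 of the 78, where 50.6% of all genes tested were below 0. Its median was -0.55 over the members and -0.01 over all genes. At an adjusted p-value under 0.05 by edgeR's quasi-likelihood test, 2 members (2.56%) fell, Rps7 and Rpl30, and 0 rose. Over all 13867 genes tested, 12.4% were called, 3.84% lower and 8.6% higher, so the share of members called lower was not above the background. At an unadjusted p-value under 0.05, 13 members (16.7%) were lower, beside 11.9% of all genes, and 0 were higher, beside 17.2%.

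With library size alone as the scale, the fold changes of the members lay closer to 0. This scale moved the median over all genes up to 0.26, and that over the members to -0.22, so the members stayed below the other genes by 0.49, against 0.54 with TMM. There were 60 of 78 members below 0, beside 29.4% of all genes. Only Rps7 was called lower and 0 members were called higher, while 1.44% of all genes were called lower and 9.32% higher. At an unadjusted p-value under 0.05, 3 members were lower (3.85%), beside 4.52% of all genes, and 0 were higher, beside 24%. DESeq2 called 4 members lower, Rps7, Rpl30, Rps27l and Rpl34, beside 6.27% of all genes that it tested. Among all calls the share that was higher in CgA-KO rose from 69.1% with TMM to 86.6% with library size.

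The groups did not overlap, with all 3 CgA-KO livers below all 3 WT livers, in 16 of the 78 tested members (20.5%) under TMM, where 14.6% of all genes did so. These were Rps7, Rps16, Rps18, Rps19, Rps23, Rps27l, Rps28 and Rpsa of the small subunit and Rpl5, Rpl14, Rpl15, Rpl26, Rpl27a, Rpl30, Rpl34 and Rpl35a of the large subunit. Of these, copies with identical aligned bases outnumber Rpl5, Rpl27a and Rps23 in every library, so their levels are uncertain. The level of Rps7 is uncertain too, since a near-identical copy outnumbers it in the CgA-KO livers, as described below. None of the 78 tested members lay wholly higher in CgA-KO, where 19% of all genes did. With library size the count was 8 lower (10.3%) beside a background of 6.14%, and of the tested members Rpl3 and Rpl4 lay wholly higher (2.56%) beside 29.6%. Taken singly, each separated gene had p = 0.1 in a two-sided exact permutation test, the smallest value that 3 mice per genotype allow.

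**Figure D2:**
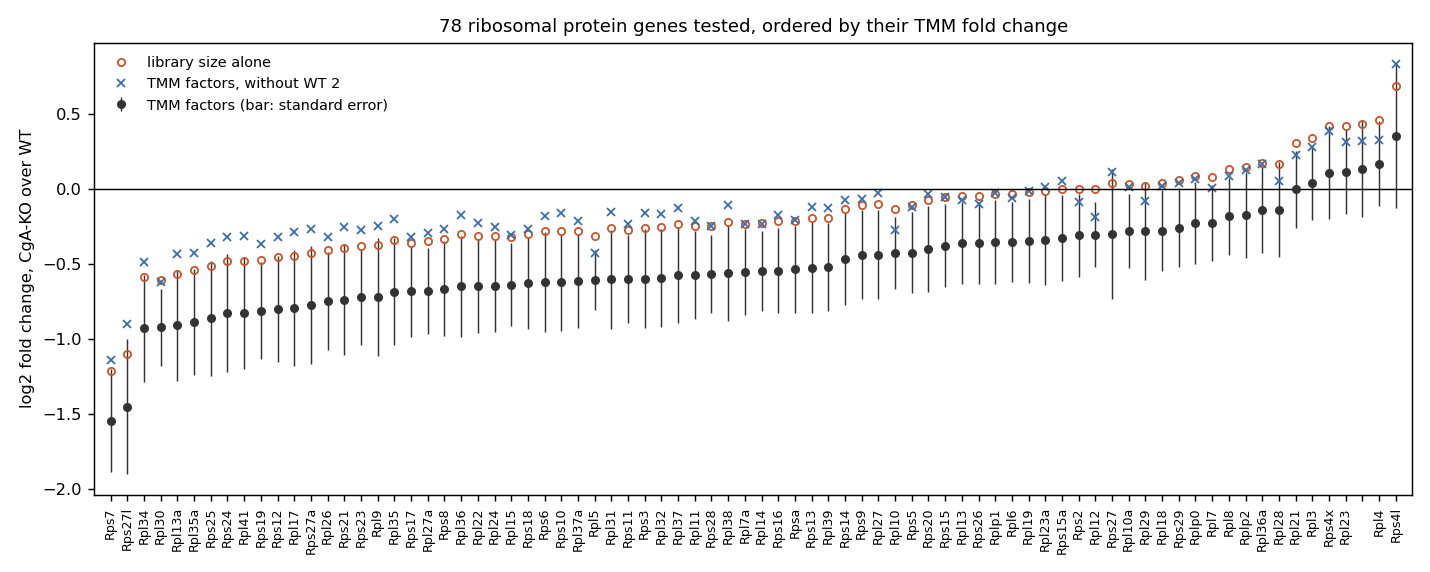
Log2 fold change of CgA-KO over WT for the 78 members tested, ordered by the value with TMM factors (black, with its standard error), beside library size alone (open orange) and TMM factors without WT 2 (blue crosses). The black points were below 0 for 72 members, the orange ones for 60 and the blue ones for 59, and Rps7 and Rps27l lay apart at the low end.

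WT replicate 2 carried much of this difference. Each of the 78 members was higher in it than the mean of the other 2 WT livers, by 0.39 to 1.27 on the log2 scale with a median of 0.92. It was the highest of the 6 libraries in 72 members with TMM and in 58 with library size. Without it, the TMM median of the members was -0.17 beside 0.01 for all genes, 59 of 78 were below 0 beside 49.4% of all genes, and 1 member, Rps7, was called lower, where 2.63% of all genes were. With library size and without it, an alternative chosen after seeing the data, the median was -0.01 beside 0.16 for all genes, 41 of 78 were below 0 beside 37.2% of all genes, and 0 members were called by edgeR. Over all genes 480 of 14155 were called in that fit, 67.3% of these higher. In it 2 members had an unadjusted p-value under 0.05, both lower. The share of all genes at that threshold was not counted, so no background stands beside these 2.

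**Figure D3:**
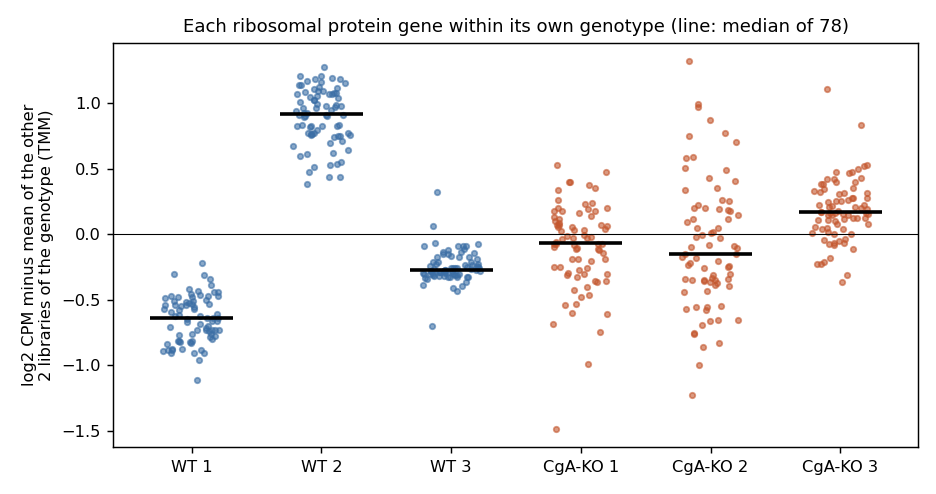
Level of each of the 78 members in each library as log2 CPM with TMM factors minus the mean of the other 2 livers of its genotype, with black lines at the medians. All points of WT 2 lay above 0 with a median of 0.92, and the points of CgA-KO 2 spread furthest, from -1.23 to 1.32.

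Short mRNAs outside the family were also high in WT replicate 2. Over genes that are no members, the median deviation of this library from the other 2 WT livers was 0.58 for the 262 genes with a coding length of up to 300 nt and -0.32 for the 1737 genes over 3000 nt, and it fell with each class in between. Members followed the same order, from 1.06 in the shortest class (10 genes) to 0.64 in the longest that they filled (3 genes), and lay above the other genes in each class. Across genes, which are not independent replicates, Spearman's correlation of this deviation with coding length was -0.46 over the 77 members with a coding length and -0.39 over 13050 genes tested. Transcript GC content moved less with it: the deviation of non-members ran from 0.09 in the class up to 45 percent to -0.13 in the class over 55 percent. The part of coding length in the difference between the genotypes was not tested.

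**Figure D4:**
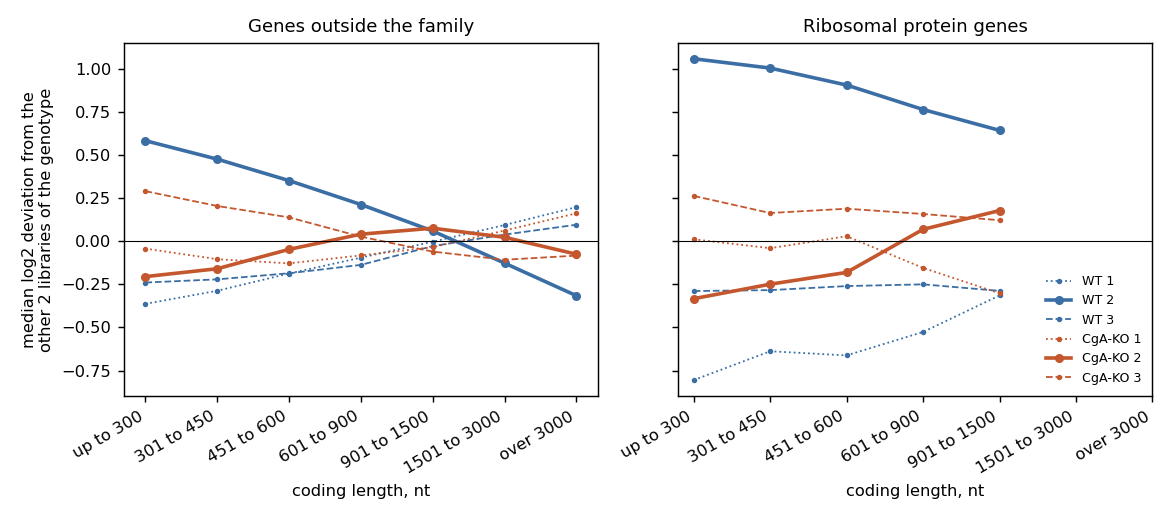
Median log2 deviation of each library from the other 2 livers of its genotype, by class of coding length, for genes outside the family (left) and for the members (right). The line of WT 2 falls from 0.58 to -0.32 on the left and from 1.06 to 0.64 on the right, where the longest class holds 3 genes.

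Rps7, a small-subunit protein that also binds the p53 regulator Mdm2, had the largest decrease of the 78 members tested. Its level was 310, 664 and 362 CPM in WT and 159, 110 and 190 CPM in CgA-KO, with means of 445 ± 191 and 153 ± 40.1 CPM (SD, n = 3). Every CgA-KO liver was below every WT liver. The log2 fold change was -1.54 ± 0.34 (SE) with an adjusted p-value of 0.0220 by edgeR's quasi-likelihood test, and -1.21 with 0.0275 under library size. Leaving out WT replicate 3, CgA-KO replicate 1 or CgA-KO replicate 2 ended the call, with adjusted p-values of 0.0640, 0.0739 and 0.0722 and fold changes of -1.68, -1.53 and -1.31.

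The Rps7 gene, at chr12:28630854-28635953 on the minus strand, has a near-identical copy, Rps7-ps3, a processed pseudogene at chrX:152909505-152910155 that GENCODE calls Gm6472 and marks as transcribed. The copy, which was singled out after its values were seen, went the other way. Rps7-ps3 had 54.4, 144 and 85.5 CPM in WT and 202, 189 and 230 CPM in CgA-KO, so every CgA-KO liver was above every WT liver. Its log2 fold change was 1.13 ± 0.33 with an adjusted p-value of 0.0578 by edgeR, and 1.47 with 0.0165 under library size. Of the counts given to the pair, the copy took 14.9%, 17.9% and 19.1% in WT and 56.0%, 63.3% and 54.8% in CgA-KO, a separation far wider than the spread within a genotype.

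Rps7 and all of its near-identical copies summed to 364, 808 and 448 CPM in WT and 360, 300 and 419 CPM in CgA-KO, and the genotypes overlapped. For the sum the log2 fold change was -0.59, close to the members' median, and the adjusted p-value was 0.265 by edgeR. Summing was chosen after seeing the data, and in that fit Rpl30 was the single member called lower, beside 3.87% of all genes. The call on Rps7 therefore did not remain once reads were pooled over the copies.

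The sequences show how little separates the pair. Over the 651 aligned bases, which are the whole transcript of the copy, 647 were identical (99.4%) and 4 differed. Positions are counted from 1 at the 5′ end of the GENCODE Rps7 transcript of 954 nt, and the base of Rps7 is given first. The 3 differences with 14 bases on either side were T133G, G155A and G230T, shown with the differing base in capitals.
Rps7 at 133: gagcgccaagatcgTgaagcccaatggcg
Rps7-ps3 at 133: gagcgccaagatcgGgaagcccaatggcg
Rps7 at 155: aatggcgagaagccGgacgagttcgagtc
Rps7-ps3 at 155: aatggcgagaagccAgacgagttcgagtc
Rps7 at 230: aaggcgcagctgcgGgaactcaacatcac
Rps7-ps3 at 230: aaggcgcagctgcgTgaactcaacatcac
Within the aligned bases, a read that spans none of the 4 positions fits both transcripts equally well. How the quantification shared such reads between the pair, and its part in the 2 opposite shifts, was not tested.

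**Figure D5:**
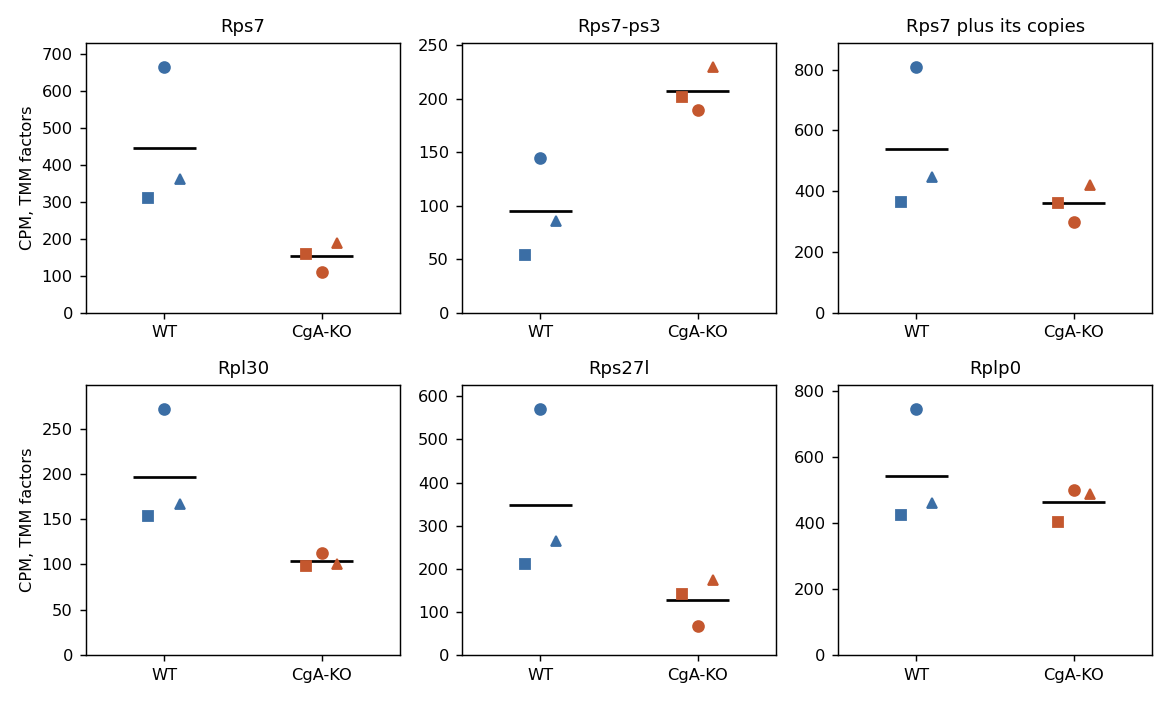
Level of Rps7, its copy Rps7-ps3, Rps7 plus its near-identical copies, Rpl30, Rps27l and Rplp0 in each liver, in CPM with TMM factors, with the vertical axes starting at 0. Squares, circles and triangles are replicates 1, 2 and 3 and lines are means; Rps7 is lower and Rps7-ps3 higher in all CgA-KO livers, while their sum overlaps.

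Rpl30, a large-subunit protein, was the other member called. It had 153, 271 and 167 CPM in WT and 98.6, 113 and 101 CPM in CgA-KO livers. All CgA-KO livers were below all WT livers, and they varied little (104 ± 7.79 CPM, SD, n = 3, against 197 ± 64.7 CPM). The log2 fold change was -0.92 ± 0.25 with an adjusted p-value of 0.0467 by edgeR, and -0.61 with 0.0661 under library size. Leaving out any library other than WT replicate 1 took the adjusted p-value past 0.05, to between 0.0849 and 0.150.

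Rps27l, a variant of the small-subunit protein Rps27 and a known target of p53, came closest to Rps7 in size. It had 211, 570 and 265 CPM in WT and 142, 67.0 and 174 CPM in CgA-KO, again without overlap. Its log2 fold change of -1.45 ± 0.45 did not pass the test, with an adjusted p-value of 0.0676 by edgeR and 0.106 under library size, while DESeq2 gave 0.00681. Leaving out WT replicate 1 gave 0.0392. Rps27 itself had 4.12, 11.3 and 7.16 CPM in WT and 4.04, 4.85 and 9.64 CPM in CgA-KO, with overlapping groups and a log2 fold change of -0.30 ± 0.43 that turned to 0.04 under library size. Its level is uncertain, since Rps27rt, a near-identical gene outside the symbol rule, held 202, 489 and 268 CPM in WT and 235, 173 and 247 CPM in CgA-KO.

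The acidic stalk of the large subunit, which recruits the elongation factors, is built on Rplp0 with Rplp1 and Rplp2. Rplp0 was the reference gene of the study's quantitative PCR. It had 425, 743 and 460 CPM in WT and 401, 501 and 488 CPM in CgA-KO livers, so the genotypes overlapped and WT replicate 2 was the highest. Its log2 fold change was -0.23 ± 0.27 with TMM and 0.09 with library size, with adjusted p-values of 0.628 and 0.801 by edgeR. Rplp1 changed by -0.36 ± 0.28 and -0.04 on the 2 scales, and Rplp2 by -0.18 ± 0.29 and 0.14, none of which passed the test. These intervals leave room for differences of either sign. Scaling all libraries by the Rplp0 count in place of TMM moved the median of all genes to 0.15 and the number of genes called from 1726 to 761, of which 83.2% were higher, and left the members at a median of -0.29 with Rps7 as the single member called, beside a background of 0.923% called lower.

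Rpsa, the small-subunit protein also known as the laminin receptor, had 598, 1140 and 687 CPM in WT and 490, 585 and 596 CPM in CgA-KO. The CgA-KO livers all lay below the WT livers with TMM but not with library size, and the log2 fold change of -0.54 ± 0.29 did not pass the test (adjusted p-value 0.257 by edgeR). Rpl13a, which besides its place in the large subunit takes part in silencing of inflammatory mRNAs, had 591, 1462 and 752 CPM in WT and 542, 361 and 591 CPM in CgA-KO. The groups of Rpl13a overlapped, and its log2 fold change was -0.91 ± 0.37 (adjusted p-value 0.143). Together with Rpsa, the genes Rpl13a, Rpl17, Rps24 and Rps2 had the highest CPM of all members, a ranking of reads that is not corrected for transcript length. Rpl17 and Rps24 were at -0.80 ± 0.39 and -0.83 ± 0.39 and Rps2 at -0.31 ± 0.28 on the log2 scale, and their groups overlapped.

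Rpl34 had 182, 428 and 227 CPM in WT and 169, 100 and 170 CPM in CgA-KO. Its CgA-KO livers lay below the WT livers, and its log2 fold change of -0.93 ± 0.35 had an adjusted p-value of 0.121 by edgeR and 0.0492 by DESeq2.

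At the other end, 6 members had a log2 fold change above 0 with TMM, and none passed the test. Rpl4, an early-joining protein of the large subunit, had 378, 533 and 414 CPM in WT and 374, 677 and 435 CPM in CgA-KO, a log2 fold change of 0.17 ± 0.28. Rpl23, at 0.11 ± 0.28, and Rps4x, the X-linked small-subunit protein, at 0.11 ± 0.31, showed the same layout, with CgA-KO replicate 2 as the highest of the 6 libraries. Leaving out CgA-KO replicate 2 turned these 3 below 0, to -0.08 for Rpl4, -0.12 for Rpl23 and -0.15 for Rps4x. Rpl3, which reaches close to the peptidyl transferase centre, had 323, 501 and 319 CPM in WT and 386, 373 and 413 CPM in CgA-KO, with a log2 fold change of 0.04 ± 0.25, and was at 0.11 without that library, -0.03 without WT replicate 1 and -0.08 without WT replicate 3.

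CgA-KO replicate 2 differed in the proportions of the members rather than in their sum. Each member's log2 level was set against the median member of its own library and then against the other 5 libraries. The SD of this value over the 78 members was 0.546 in CgA-KO replicate 2, against 0.152 to 0.314 in the other libraries. There were 7 members more than 2-fold off in CgA-KO replicate 2 and 0 in each of the others. Members high there included Rps4l at 1.59, Rpl4, Rpl28 and Rps4x at 1.05 each and Rpl23 at 1.00, and those low there included Rps27l at -1.46, Rps7 at -1.05, Rpl9 at -0.83 and Rpl34 at -0.75. With TMM it was the lowest of the 6 libraries in 39 members and the highest in 6. These members were picked by their values in this library and are a description of it. The other 5 libraries include the WT livers, so a difference between the genotypes enters these values. Rps7 was also at -0.43 and -0.40 in CgA-KO replicates 1 and 3. Without CgA-KO replicate 2, 77 of 78 members had a log2 fold change below 0 with TMM, beside 48.5% of all genes, at a median of -0.47. In that fit edgeR called 0 members, beside 1.9% of all genes called lower, and 3 were lower at an unadjusted p-value under 0.05. The share of all genes at that unadjusted threshold was not counted for this fit.

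The same library stood apart in markers of other cells. Summed levels of the 5 monocyte and dendritic cell markers were 4.08 to 6.72 CPM in WT and 17.9, 120 and 32.4 CPM in CgA-KO replicates 1, 2 and 3. The 4 T and NK cell markers in the table gave 1.74 to 6.18 CPM in WT and 15.0, 88.6 and 19.1 CPM in CgA-KO, and the 4 neutrophil markers gave 2.33 to 9.40 CPM in WT and 25.9, 200 and 28.1 CPM in CgA-KO. Cd209a, Ly6g and Mpo, defining markers of these lists, were too low in most libraries to be tested. Mpo was at 0 counts in all 3 WT livers and in CgA-KO replicate 1, and had 15 counts in CgA-KO replicate 3. In CgA-KO replicate 2 it had 2107 counts, or 66.8 of the 200 CPM of the neutrophil markers. Cd209a was at 0 counts in CgA-KO replicate 2 and at 2 to 6 in the other libraries. Of the 6 Kupffer cell markers 5 were called higher, and the sums of all 6 did not overlap, with 83.1 to 174 CPM in WT and 788 to 1206 CPM in CgA-KO. Marco, the marker not called, had 1.34, 4.47 and 14.3 CPM in WT and 0.139, 57.4 and 1.08 CPM in CgA-KO. Its CgA-KO replicates 1 and 3 lay below every WT liver and replicate 2 above. Among the 5 B and plasma cell markers and the 4 cholangiocyte markers none was called, 2 of 4 stellate cell markers were higher, and the 4 sinusoidal endothelial cell markers held 1 call in each direction. Of the 2 erythroid markers in the table, Alas2 was called lower, and Hba-a1 lay higher in all CgA-KO livers (log2 fold change 1.20, adjusted p-value 0.0573 by edgeR), and was called higher with library size (adjusted p-value 0.0247). The part of these cells in the proportions of ribosomal protein mRNAs was not tested.

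Scaling by the members' own summed count left 36 of 78 above 0 and 42 below, around a median of -0.03, with all genes at 0.39. On this scale a value says whether a member gained or lost within the family. Rps7 was called lower at -1.02 (adjusted p-value 0.0395 by edgeR), where 0.548% of all genes were, and Rpl30 was at -0.42 (adjusted p-value 0.428). Counts given to the copy Rps7-ps3 lie outside the family's sum. A loss of Rps7 within the family therefore cannot be told apart from counts given to its copy. The stalk genes were at 0.15 for Rplp1, 0.27 for Rplp0 and 0.34 for Rplp2, none of which passed the test.

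Members that replace a widespread partner in other tissues were at or near the detection limit. Rpl3l, a form of striated muscle, had 1, 0 and 1 counts in WT and 2, 3 and 3 in CgA-KO. Rpl39l, a form of male germ cells, had 5, 4 and 0 counts in WT and 0 in each CgA-KO liver. Rpl10l, which stands in for Rpl10 during meiosis, was at 0 in all 6 libraries, as was Rpl6l, and Rpl32l had 1 count in WT replicate 1. GENCODE marks Rpl6l and Rpl32l as processed pseudogenes. These 5 members did not pass the filter, and at this depth no difference in them was detectable.

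Their partners were seen in every library. Rpl10 had 97.0, 139 and 109 CPM in WT and 86.3, 64.3 and 105 CPM in CgA-KO, with a log2 fold change of -0.43 ± 0.24. Its level is uncertain, since a copy with identical aligned bases, Rpl10-ps3, held 82.7% to 89.3% of the counts of the pair. Rpl39 had 136, 288 and 161 CPM in WT and 124, 130 and 153 CPM in CgA-KO, with -0.52 ± 0.29, and neither passed the test. Rps4l, which GENCODE marks as a transcribed processed pseudogene, was seen at 5.11, 10.2 and 4.41 CPM in WT and 3.67, 13.6 and 7.93 CPM in CgA-KO. It had the highest log2 fold change of the members tested, 0.35 ± 0.48, with overlapping groups, and turned to -0.14 without CgA-KO replicate 2.

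Medians of the fold change lay close together when members were grouped by these features. The 13 tested members with a TOP tract at the RefSeq start had a median of -0.62 with TMM and -0.28 with library size, and the 44 tested members with a start but no tract at it had -0.56 and -0.23. Those with a near-identical copy of at least 10 counts on average (25 genes) had medians of -0.57 and -0.24, and the other 53 had -0.55 and -0.22. Small-subunit members had -0.58 and -0.25 and large-subunit members -0.53 and -0.21. These are descriptions without a test.

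Ribosomal proteins that the symbol rule does not reach had the same sign. All 8, among them Fau, Rack1 and Rps3a1, were below 0 with TMM at a median of -0.49, beside 50.6% of all genes below 0. By edgeR 0 were called in either direction, beside 3.84% of all genes lower and 8.6% higher. At an unadjusted p-value under 0.05, 2 were lower and 0 higher, beside 11.9% and 17.2% of all genes. With library size the median was -0.16 and 6 of the 8 were below 0.

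Of the listed factors that work with the ribosome in translation, 1 passed the test with TMM. Of 36 translation initiation factors, edgeR called 0, beside 3.84% of all genes called lower and 8.6% higher with TMM. At an unadjusted p-value under 0.05 with TMM, 1 was lower and 0 higher, beside 11.9% and 17.2% of all genes. The median of these 36 was -0.07 with TMM and 0.22 with library size. Among 11 elongation and termination genes the median was -0.17 with TMM and 0.11 with library size, where 3 of the 11 were below 0. With TMM 1 of the 11 was called lower, beside 3.84% of all genes. It was Eef2k, the kinase that slows elongation by phosphorylating Eef2. Eef2k had 9.14, 8.38 and 10.9 CPM in WT and 3.16, 4.92 and 3.63 CPM in CgA-KO, and fell by 1.28 on the log2 scale (SE 0.26, adjusted p-value 0.0170 by edgeR). With library size its log2 fold change was -1.02 and no gene of this list was called.

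Genes that make the ribosome had a median above 0. The 44 genes of ribosome assembly and ribosomal RNA synthesis had a median of 0.19 with TMM and 0.45 with library size, beside -0.01 and 0.26 for all genes. With TMM 3 of them rose, beside 8.6% of all genes, and with library size 4 rose, beside 9.32%, so the calls were near the background. None fell by edgeR, and without WT replicate 2 no gene of the list was called. At an unadjusted p-value under 0.05 with TMM, 7 were higher and 3 lower, beside 17.2% and 11.9% of all genes. With library size 15 were higher and 0 lower at that threshold, beside 24% and 4.52% of all genes. Nop58, a core protein of the small nucleolar RNPs that guide methylation of ribosomal RNA, had 11.6, 15.6 and 14.6 CPM in WT and 22.4, 26.3 and 22.5 CPM in CgA-KO, a log2 fold change of 0.77 ± 0.19 (adjusted p-value 0.0307). Taf1b, a subunit of the RNA polymerase I selectivity factor, rose by 0.95 ± 0.26 (adjusted p-value 0.0433), and Tsr1, an assembly factor of the small subunit, by 0.62 ± 0.17 (adjusted p-value 0.0478).

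The list of growth control had 26 of 27 genes tested, a median of -0.02 with TMM and 0.24 with library size, and 2 called higher and 1 lower, beside 8.6% and 3.84% of all genes. Without WT replicate 2 no gene of the list was called by edgeR. Mtor, the kinase through which TOP mRNAs respond to nutrients, had 60.6, 65.1 and 54.3 CPM in WT and 37.4, 34.4 and 39.7 CPM in CgA-KO. It fell by 0.69 on the log2 scale (SE 0.17, adjusted p-value 0.0291 by edgeR), and with library size, where the value was -0.42, no gene of the list was called lower. Eif4ebp3, an inhibitor of cap-dependent initiation, rose by 1.03 ± 0.27 (adjusted p-value 0.0426). Ddit4, an inhibitor of mTOR complex signalling that stress induces, had 3.67, 2.38 and 2.54 CPM in WT and 6.50, 24.6 and 5.83 CPM in CgA-KO, with the highest value in CgA-KO replicate 2, and rose by 2.13 ± 0.56 (adjusted p-value 0.0396). Larp1, the binder of TOP tracts, was at 0.54 ± 0.24 and did not pass the test (adjusted p-value 0.169).

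Other families were set beside the members. The 78 mitochondrial ribosomal protein genes, which serve the separate ribosome of mitochondria, had a median of -0.48 with TMM, with 74 below 0, 7 called lower and 0 higher, beside 50.6% of all genes below 0, 3.84% called lower and 8.6% higher. The 39 subunits of respiratory complex I had a median of -0.60, with 38 below 0, 1 called lower and 0 higher. At an unadjusted p-value under 0.05 by edgeR with TMM, 34 of the 78 and 21 of the 39 were lower. The share was 11.9% over all genes and 16.7% over the tested cytosolic members. With library size the medians were -0.17 and -0.29 and edgeR called 0 genes of either family. On that scale 12 and 8 were lower at an unadjusted p-value under 0.05, beside 4.52% of all genes and 3.85% of the cytosolic members. Without WT replicate 2, edgeR called 2 of the mitochondrial ribosomal protein genes lower and 0 of complex I, beside 2.63% of all genes, and the TMM medians were -0.26 and -0.33, beside -0.17 for the cytosolic ribosomal proteins. The difference between these families was not tested.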

How the data were processed

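Liver mRNA was sequenced from 6 mice, 3 of each genotype, with 1 library per mouse. The deposited values are whole-number counts per gene symbol that the authors obtained with Salmon 1.4.0 at the transcript level against GRCm38, as their processing notes and methods say, without scaling. How transcripts were summed to genes is not given in the sources used here. Of the 32212 rows, 12519 were at 0 in all libraries and 78 repeated a symbol, which were kept as rows of their own.

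For the tests, edgeR 4.0.16 was run in R 4.3.3 (filterByExpr, minimum count 10, 13867 genes; TMM factors; robust quasi-likelihood fit; two-sided test of genotype; Benjamini-Hochberg adjustment over all genes tested; calls under 0.05). CPM values use TMM factors unless library size is named, and errors of log2 fold changes are standard errors approximated from the F statistic. The mice are separate animals, so p-values measure the spread between mice. Counting limits cover counting error only. Near-identical copies were GENCODE transcripts with at least 95% identity over at least 60% of the shorter transcript (BLAST 2.17.0). Alternatives used library size, upper-quartile factors, scaling by the members or by Rplp0, DESeq2 1.42.0, limma-voom (limma 3.58.1), other filters, a threshold of 0.01, a replicate block and fits that each left out 1 library. The procedure was tested on simulated data. Figures were drawn with matplotlib 3.10.9.

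The members and all gene lists were chosen with earlier results of these data known. Named members are Rplp0, Rplp1, Rplp2 and Rpsa, the 5 largest and 5 smallest fold changes, the 5 highest and 5 lowest CPM, the members called, and tissue-restricted forms with their partners. From the other lists at most 4 called genes each are named, by p-value; genes named beyond this rule were chosen after their values were seen. Some genes under this rule are left unnamed and are not reported here. Gene lengths are coding lengths from GENCODE vM21, and start sites are from RefSeq GRCm38.p6.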

Additional observations from a re-analysis of the deposited data

How the results depend on the processing

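The median log2 fold change of the members ran from -0.69 to -0.17 when 1 library was left out with TMM factors. It was -0.027 with scaling by the summed member count, which sets it near 0 by construction, and -0.0097 with library size without WT replicate 2. No member was called higher under any of them by edgeR, DESeq2 or limma-voom. Members called lower numbered 2 with TMM and 4 with DESeq2 (Rps7, Rpl30, Rps27l and Rpl34), beside 3.84% and 6.27% of all genes called lower. There was 1 with library size, the summed member count, the Rplp0 count or near-identical copies summed in, beside 1.44%, 0.548%, 0.923% and 3.87%. With upper-quartile factors there was 1, where 74.2% of 1654 calls were higher. There were 0 at a threshold of 0.01 and with library size when WT replicate 2 or CgA-KO replicate 2 was left out. When 1 library was left out with TMM there were 0 to 4. The 4 came without WT replicate 1, where 73.5% of 2126 calls were higher. The share of all genes called lower was 2.63% without WT replicate 2 and 1.9% without CgA-KO replicate 2. Members above 0 numbered 6 with TMM, 18 with library size, 36 with the summed member count, 11 with the Rplp0 count, 37 with library size without WT replicate 2, 15 with library size when CgA-KO replicate 2 was left out, and 1 to 19 when 1 library was left out. Over all genes, 1726 calls became 985 with the summed member count, 761 with the Rplp0 count, 360 at a threshold of 0.01, 480 with library size without WT replicate 2, 336 with library size when CgA-KO replicate 2 was left out, and 394 to 2126 when 1 library was left out. Of these calls 69.1% were higher with TMM, 92.3% with the summed member count, 55.8% without WT replicate 2 and 80.5% when CgA-KO replicate 1 was left out. The alternatives that summed copies or combined library size with a left-out library were chosen after seeing the data. The cause of these shifts was not tested.

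The replicate numbers did not pair the mice. Same-numbered deviations from the genotype means correlated at 0.199, 0.0127 and -0.0659, and not every library correlated best with its own number. The fit with the replicate number as a block called 1 member lower, Rpl30 (adjusted p-value 0.0499 by edgeR), with Rps7 at 0.0543 and a median of -0.48. Over all genes it called 1498, of which 73% were higher.

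Scaling by library size, by the summed member count or by Rplp0 moved the members listed here upward, so a turned sign under these is no result about a single member. Fits that also left out a library changed the samples as well as the scale. Among the members that the naming rule covers, the signs turned as follows. With library size Rplp0 was at 0.085, Rplp2 at 0.14 and Rps27 at 0.039. With the summed member count Rplp0 was at 0.27, Rplp1 at 0.15, Rplp2 at 0.34, Rps2 at 0.17, Rpl10 at 0.015, Rpl39 at 0.0074 and Rps27 at 0.24, and with the Rplp0 count Rplp2 was at 0.048. With library size without WT replicate 2, Rplp0 was at 0.21, Rplp1 at 0.12, Rplp2 at 0.28, Rps2 at 0.066, Rpl39 at 0.023 and Rps27 at 0.28. With library size without CgA-KO replicate 2, Rplp0 was at 0.026, Rpl10 at 0.032 and Rps27 at 0.18. When 1 library was left out, the values ran from -0.34 to 0.064 for Rplp0, -0.35 to 0.12 for Rplp2, -0.73 to 0.11 for Rps27, -0.15 to 0.38 for Rps4x, -0.085 to 0.28 for Rpl3, -0.12 to 0.31 for Rpl23, -0.084 to 0.37 for Rpl4 and -0.14 to 0.83 for Rps4l.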

Other observations

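Reads of the ribosomal protein genes were spread over many near-identical copies. A total of 387 rows were such copies of 68 members, most of them at or near 0, and 27 held at least 10 counts on average. Copies took 13.2 to 15.0 counts for every 100 counts of the members, and the genotypes overlapped. Some copies held more counts than the member they resemble: Rpl10-ps3 for Rpl10, Gm15500 for Rpl5, Gm10275 for Rpl12, Rps27rt for Rps27, Gm7536 for Rpl27a and Rps23-ps1 for Rps23, each with 100% identity over the aligned bases. Gm7536 held 58.8% to 63.0% of the counts of its pair over the libraries, and Rps23-ps1 held 55.2% to 59.5%. Rps7-ps3 held more counts than Rps7 in the CgA-KO livers only, with 54.8% to 63.3% of the pair there. The levels of Rpl5, Rpl10, Rpl12, Rpl27a, Rps7, Rps23 and Rps27 are therefore uncertain. Apart from Rps7-ps3, which was called higher with library size, no copy was called in either scaling by edgeR.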
